A study of Danio rerio with 15 samples.

Results

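Carboxylic and sulfonic acid head groups on a short fluorinated chain were compared in 48-hour zebrafish embryos: the carboxylic acid PFPeA (perfluoropentanoic acid) against the sulfonic acids PFBS (perfluorobutane sulfonic acid) and 42FTS (a fluorotelomer sulfonic acid). The comparison rested on 9 of the 15 libraries of the series, 3 for each acid, which were chosen by their compound labels. Every library held RNA of 10 whole embryos, pooled, of the Tropical 5D wild-type line. Embryos without their chorion were kept from 8 hours post fertilization (hpf) in a medium with 47 uM of 1 acid, not renewed, and were collected at 48 hpf. The 3 control libraries came from embryos of the same line and age at 0 uM, and 0.5% methanol was present in all groups, controls included. They served to place the levels and were set against each acid. All 15 libraries entered the fit behind the p-values. The other 3 came from embryos exposed to the sulfonamide FBSA at 47 uM from 8 to 48 hpf. The labels do not state whether the pools come from different clutches, and the p-values therefore rest on how much pools of 1 group vary, which may be technical. All 3 acids carry a perfluorobutyl chain. In PFPeA it bears a carboxylic acid and in PFBS a sulfonic acid, while 42FTS has an ethyl spacer between the chain and its sulfonic acid.

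Perfluoroalkyl acids resemble fatty acids in their fluorinated tail and acid head. The longer members of the class are known to bind fatty acid binding proteins and serum albumin, to activate peroxisome proliferator-activated receptors (PPARs), the nuclear receptors that switch on fatty acid oxidation, and to use organic anion transporters. Genes of lipid metabolism, of transport and of the liver were listed beside cell type and stress genes. These lists were chosen with earlier results of these data known. At 48 hpf the embryo still draws its lipids and sterols from the yolk, and its liver has begun to form.

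Transcripts were counted as whole reads per gene. Totals in genes were between 31853175 and 32494323 reads in 8 of the 9 libraries. In 42FTS 2 the total was 24249287, with 9.94% of reads unaligned (6.41% to 6.73% in the other 8). Control 3, not among the 9, was similar, with 24552649 reads in genes and 9.92% unaligned. On the first principal component of the 9 libraries, which held 16.6% of the variance, PFPeA 1 (51.4) and 42FTS 2 (45.0) stood apart from the other 7 (-22.3 to -0.30), so the results most tied to them are given with and without them. A pair of PFBS columns shared 1 header. They are called PFBS a and PFBS b, the third is PFBS 2, and PFBS values are given in the order a, 2, b. Of 57 marker genes for 14 cell types of the embryo, 44 were at 1 CPM (CPM is the read count scaled to library size, with TMM factors, the unit of every level below) or more in all 9 libraries, and each type had at least 1 such marker. The markers coro1a (macrophages and neutrophils), alas2 (red cells), atp6v1aa (ionocytes) and ctrb1 (pancreas) were at 0 in at least 1 library. The summed marker level of PFPeA overlapped that of the sulfonic acids for all 14 types.

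No gene passed an adjusted p of 0.05 between the carboxylic acid and the 2 sulfonic acids. edgeR's quasi-likelihood test with Benjamini-Hochberg adjustment called 0 of 23874 genes (0%), with a smallest adjusted p of 0.0631. At an unadjusted p under 0.05 it gave 1548 genes (6.48%), 814 higher in PFPeA (3.41%) and 734 lower (3.07%). All 3 PFPeA libraries lay above all 6 sulfonic libraries in 409 genes (1.71%) and below them in 351 (1.47%). DESeq2, the other tool run, called 22 genes on the same filtered table, 11 higher and 11 lower. Most genes had an interval that bounds the difference: the 95% confidence interval (CI) lay within 2-fold in either direction for 73.0% of genes and within 1.5-fold for 53.3%, and the median fold change over all genes was 0.013 on the log2 scale.

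The 3 pairs of acids were compared in the same fit. PFPeA against PFBS gave 0 called genes (0%; smallest adjusted p 0.335), 1154 at an unadjusted p under 0.05 (4.83%) and 14 with DESeq2. PFPeA against 42FTS gave 0 (0%; smallest adjusted p 0.322), 1629 unadjusted (6.82%) and 24 with DESeq2. PFBS against 42FTS, which share the sulfonic acid and differ by the ethyl spacer, gave 0 (0%; smallest adjusted p 0.906), 1047 unadjusted (4.39%) and 11 with DESeq2. Adjusted over the 3 pairs jointly, the smallest edgeR p was 0.584. Intervals lay within 2-fold for 68.4% of genes for PFPeA against PFBS, 67.8% for PFPeA against 42FTS and 68.7% for PFBS against 42FTS. The intervals bound most single differences and do not show that the acids act alike. Against the control, edgeR called 0 genes for PFPeA, PFBS and 42FTS (0% each), with 1243 (5.21%), 925 (3.87%) and 972 (4.07%) genes at an unadjusted p under 0.05, while DESeq2 called 15, 6 and 12.

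**Figure D1:**
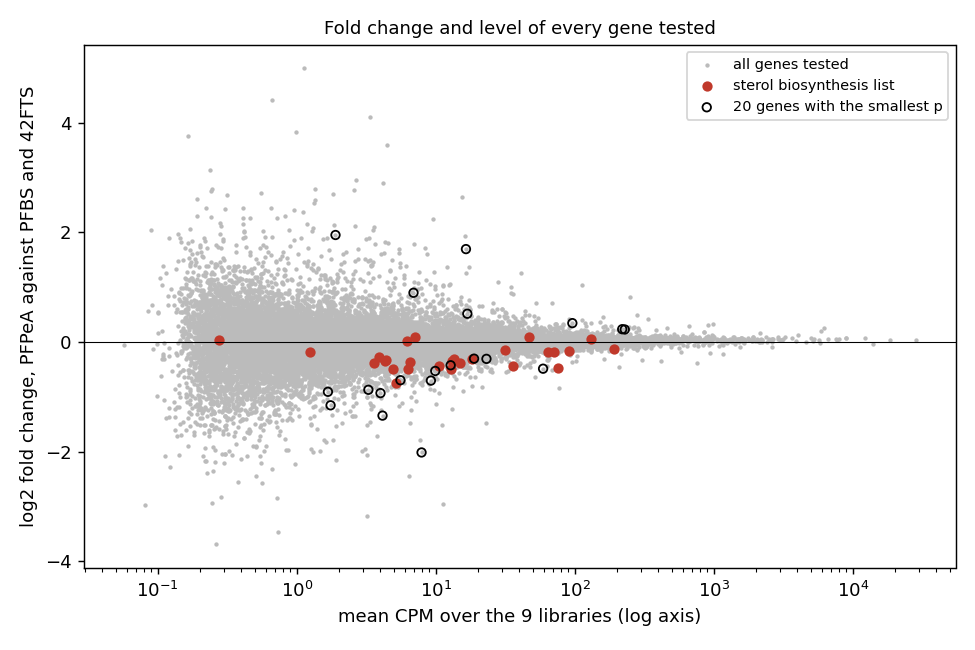
Each gene tested is a point, with its mean CPM over the 9 libraries on a log axis (x) and its log2 fold change of PFPeA against PFBS and 42FTS (y). Red points are the 27 tested sterol biosynthesis genes, of which 22 lie below 0, and open circles are the 20 genes named first in the text.

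The 20 genes named first had the smallest unadjusted p among named genes at 1 CPM or more with all 3 PFPeA libraries on 1 side of all 6 sulfonic libraries. Their groups do not overlap by that choice. None passed the edgeR test (adjusted p 0.418 to 0.581), 7 were higher in PFPeA and 13 lower. DESeq2 called suz12b, scarb2a and nccrp1, with values below, and clta (adjusted p 0.0021), tmx2a (0.0167) and slc25a1b (0.0177). It also called sez6l2 (0.0281), rorb (0.0305), hmg20b (0.0308), taf5l (0.0379), gpm6aa (0.0396), cers2b (0.0483) and znf503 (0.04996). It did not call socs9, fzd3b, dusp11, bsdc1, clpxb, a1cf or bhlhe40. The first group described bears on chromatin and transcription.

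suz12b, a subunit of Polycomb repressive complex 2, which methylates histone H3, was at 1.36, 1.61 and 3.15 CPM in PFPeA, 5.91, 5.58 and 4.83 in PFBS, 6.07, 4.90 and 3.87 in 42FTS and 5.78, 4.51 and 4.98 in the control. The PFPeA libraries were all below the sulfonic and control libraries. The log2 fold change of PFPeA against the sulfonic acids was -1.35 (95% CI -1.88 to -0.81, unadjusted p = 7e-05), and DESeq2 gave an adjusted p of 0.00043. Without PFPeA 3, the highest of its group, the edgeR adjusted p was 0.0192. Leaving out the PFPeA library nearest the sulfonic acids widens the difference, so this value is no further support. With any other acid library left out, suz12b did not pass. With numbered copies of the name added to the entry, the suz12b fold change was -0.14. hmg20b, an HMG box subunit of a histone deacetylase complex, was at 8.46, 13.1 and 8.46 CPM in PFPeA, 5.69, 4.79 and 6.86 in PFBS, 5.80, 4.70 and 4.45 in 42FTS and 4.47, 5.06 and 4.86 in the control, a log2 fold change of 0.90 (95% CI 0.49 to 1.3, unadjusted p = 0.000278). The plain hmg20b entry holds only part of that name's reads: with numbered copies added to it, its fold change was -0.015. taf5l, a subunit of histone acetylase complexes, gave -0.43 (unadjusted p = 0.000444). rorb, an orphan nuclear receptor of retina and brain, was at 0.896, 1.04 and 0.868 CPM in PFPeA, 1.19, 1.46 and 2.22 in PFBS, 2.44, 3.13 and 2.52 in 42FTS and 1.80, 1.55 and 1.2 in the control. All 3 42FTS libraries were higher than any PFBS library, and the fold change of PFPeA was -1.16 against both acids, -0.79 against PFBS and -1.52 against 42FTS. znf503, a zinc finger repressor of the developing brain, gave 0.23 (unadjusted p = 0.000322), and bhlhe40, a repressor in the circadian clock that is also induced by hypoxia, 0.34 (unadjusted p = 0.000865).

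Membrane and vesicle proteins made up the next group. scarb2a, a lysosomal membrane protein whose mammalian counterpart carries glucocerebrosidase to lysosomes, was at 44.5, 47.7 and 47.7 CPM in PFPeA, 56.9, 58.5 and 74.7 in PFBS, 67.0, 72.4 and 63.5 in 42FTS and 61.1, 72.4 and 76.6 in the control. PFPeA lay below every sulfonic and control library. The sulfonamide FBSA, another compound of the series, was at 41.7, 47.3 and 49.1 CPM, near PFPeA. The log2 fold change of scarb2a between PFPeA and the sulfonic acids was -0.49 (95% CI -0.69 to -0.29, unadjusted p = 9.17e-05), and DESeq2 gave an adjusted p of 0.0021. In the authors' deposited table, scarb2a was at a log2 fold change of -0.61 for PFPeA against the control (Q = 1.98e-05). It was at -0.11 there for PFBS and -0.011 for 42FTS. For PFPeA against the control the edgeR fit gave scarb2a -0.59, with an adjusted p of 0.314. clta, a clathrin light chain of coated vesicles, was at 37.3, 35.7 and 18.5 CPM in PFPeA, 7.36, 7.84 and 16.7 in PFBS, 7.88, 8.31 and 8.94 in 42FTS and 18.1, 8.23 and 17.5 in the control. PFPeA 1 and 2 were high, PFPeA 3 lay near PFBS b and a pair of control libraries, and the fold change was 1.69 (95% CI 1.02 to 2.36, unadjusted p = 0.000145). tmx2a, a thioredoxin-related membrane protein of the endoplasmic reticulum, was at 2.32, 4.59 and 3.89 CPM in PFPeA, 1.45, 1.33 and 1.92 in PFBS, 1.13, 0.241 and 0.246 in 42FTS and 0.367, 0.244 and 0.321 in the control. Every PFPeA library was above every PFBS library and every PFBS library above every 42FTS and control library. The log2 fold change was 1.95 (95% CI 1.14 to 2.76, unadjusted p = 0.000121). Without 42FTS 1, the highest of its group, the edgeR adjusted p was 0.0134. Leaving out the 42FTS library nearest PFPeA widens the difference, so this value is no further support. With any other acid library left out, tmx2a did not pass.

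nccrp1, named for a receptor of the nonspecific cytotoxic cells of fish, was at 3.00, 2.31 and 2.25 CPM in PFPeA, 8.43, 3.05 and 11.8 in PFBS, 16.9, 15.2 and 8.36 in 42FTS and 2.33, 2.32 and 3.41 in the control. PFPeA and control libraries overlapped, while 5 of the 6 sulfonic libraries lay between 8.36 and 16.9 CPM and PFBS 2 at 3.05. The log2 fold change was -2.02 (95% CI -2.98 to -1.05, unadjusted p = 0.000672) for PFPeA against the sulfonic acids and 2.33 for 42FTS against the control. DESeq2 gave adjusted p-values of 0.0002 for the first and 0.000134 for the second, edgeR 0.581 and 0.997. In the authors' deposited table nccrp1 was at a log2 fold change of 0.03 for PFPeA, 0.074 for PFBS and -0.02 for 42FTS against the control, so the difference between acids is in the read counts used here and not in that table. Over the 20 genes, the control mean was nearer the sulfonic mean for 13 and nearer the PFPeA mean for 7. The genes were chosen with PFPeA outside the 6 sulfonic libraries, which can itself place the control nearer the sulfonic mean. The split therefore does not show which acid departs from the control.

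The rest of the 20 covered neurons, signaling and mitochondria. gpm6aa, a neuronal membrane glycoprotein, gave 0.23 (unadjusted p = 0.00028) and sez6l2, another membrane protein of neurons, -0.93 (unadjusted p = 0.000386). fzd3b, a Wnt receptor, gave -0.87 (unadjusted p = 0.000629) and socs9, of the suppressors of cytokine signaling, -0.91 (unadjusted p = 0.000614). slc25a1b, the mitochondrial citrate carrier that feeds citrate to lipid synthesis, was at 6.86, 5.82 and 6.79 CPM in PFPeA, 9.05, 8.69 and 12.1 in PFBS, 12.9, 10.6 and 10.29 in 42FTS and 9.30, 9.47 and 6.74 in the control, and its fold change was -0.71 (95% CI -1.03 to -0.38, unadjusted p = 0.000284). Of the control libraries, Control 3 was as low as PFPeA. clpxb, the ATPase of a mitochondrial protease, gave -0.31 (unadjusted p = 0.000778) and cers2b, a ceramide synthase, -0.70 (unadjusted p = 0.000551). a1cf, an RNA-binding protein that in mammals aids the editing of apolipoprotein B mRNA, gave -0.53 (unadjusted p = 0.000826), dusp11, an RNA phosphatase, -0.31 (unadjusted p = 0.000732), and bsdc1 0.51 (unadjusted p = 0.000777). With numbered copies added, bsdc1 was at 0.08.

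**Figure D2:**
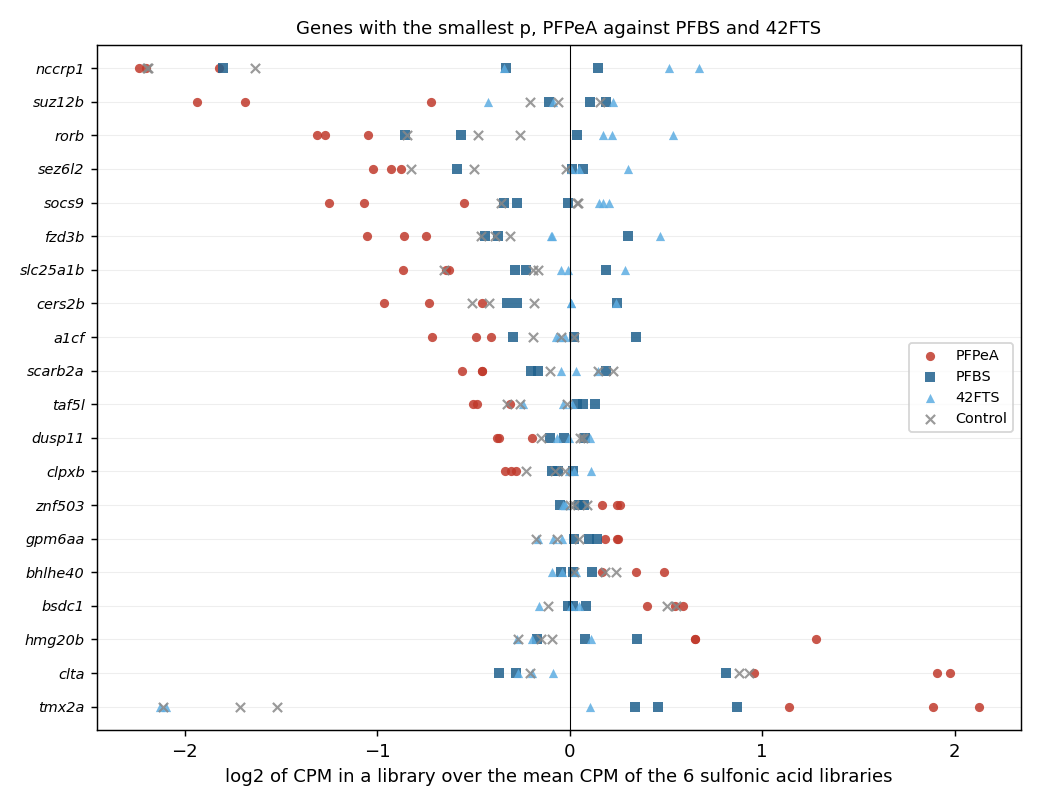
The 20 genes (rows) with the log2 of CPM in each library over the mean of the 6 sulfonic acid libraries (x), for PFPeA, PFBS, 42FTS and control, ordered by fold change. PFPeA lies to 1 side of PFBS and 42FTS in each row because the genes were chosen so, and the control lies on the PFPeA side for nccrp1 and near 42FTS for tmx2a.

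Sterol biosynthesis was the list with the lowest median of the 39 with tested members. The lists were chosen with earlier results of these data known, so this rank is not a test set in advance. Cells build cholesterol from acetyl-CoA through mevalonate, isoprenoids, squalene and lanosterol, and the transcription factor SREBP2 raises the genes of the pathway when cell sterol is low. Of the 27 members tested, 0 passed the adjusted test (0% of all genes did), 12 were lower in PFPeA at an unadjusted p under 0.05 (3.07% of all genes) and 0 were higher (3.41%). All 3 PFPeA libraries lay below all 6 sulfonic libraries in 10 of the 27 (1.47% of all genes). The median log2 fold change was -0.31, against 0.013 over all genes, and the medians of the other 38 lists were between -0.033 and 0.20. In bulk samples, fewer cells of a type and less RNA per cell cannot be told apart.

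In the mevalonate part, hmgcs1, which makes HMG-CoA, was at 55.6, 53 and 72.9 CPM in PFPeA, 78.5, 68.5 and 97.2 in PFBS, 89.9, 77.1 and 93.7 in 42FTS and 79.4, 93.4 and 106 in the control. PFPeA 1 and 2 were below all other libraries and PFPeA 3 overlapped PFBS 2, and the log2 fold change was -0.48 (95% CI -0.84 to -0.11, unadjusted p = 0.015). The next enzyme, HMG-CoA reductase, is rate-limiting and has a pair of genes here: hmgcra gave -0.50 (95% CI -0.94 to -0.066, unadjusted p = 0.027) and hmgcrb 0.10 (95% CI -0.038 to 0.23, unadjusted p = 0.14). mvda, which decarboxylates mevalonate pyrophosphate, was at 9.11, 10.4 and 10.6 CPM in PFPeA, 13.3, 15.7 and 16.0 in PFBS, 11.9, 11.9 and 16.8 in 42FTS and 13.9, 17.4 and 18.6 in the control. All PFPeA libraries were below all others. Its fold change was -0.50 (95% CI -0.81 to -0.19, unadjusted p = 0.0035), and in the authors' deposited table it was -0.76 for PFPeA against the control (Q = 0.0059), -0.19 for PFBS and -0.32 for 42FTS. idi1, the isomerase that makes dimethylallyl pyrophosphate, gave -0.18 (unadjusted p = 0.031).

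From squalene on, sqlea, the squalene epoxidase that is a control point of the pathway, gave -0.39 (95% CI -0.69 to -0.10, unadjusted p = 0.013). lss, which folds squalene epoxide into lanosterol, was at 3.61, 3.86 and 3.25 CPM in PFPeA, 4.90, 6.31 and 7.25 in PFBS, 7.23, 4.70 and 5.81 in 42FTS and 7.04, 5.12 and 10.4 in the control. PFPeA libraries lay below all others, PFBS and 42FTS overlapped the control, and the fold change was -0.76 (95% CI -1.32 to -0.19, unadjusted p = 0.012). cyp51, which removes the first methyl group of lanosterol, was at 28.3, 27.7 and 31.1 CPM in PFPeA, 36.3, 38.6 and 42.5 in PFBS, 44.7, 39.8 and 34.8 in 42FTS and 44.0, 38.1 and 55.5 in the control, with PFPeA again below all other libraries, and gave -0.44 (95% CI -0.87 to -0.012, unadjusted p = 0.045). nsdhl, which acts on the next methyl groups, was at 4.02, 5.09 and 5.89 CPM in PFPeA, 7.70, 7.61 and 6.95 in PFBS, 6.6, 6.50 and 6.76 in 42FTS and 6.42, 6.40 and 5.78 in the control. PFPeA 3 was below the sulfonic libraries and above Control 3, and the fold change was -0.49 (95% CI -0.77 to -0.21, unadjusted p = 0.0019). hsd17b7 gave -0.30 (unadjusted p = 0.033) and dhcr7, which makes cholesterol in a final step of the pathway, -0.35 (unadjusted p = 0.044).

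Among the regulators and uptake genes, srebf2, which encodes SREBP2, gave -0.13 (95% CI -0.25 to -0.0026, unadjusted p = 0.046) and ldlrb, a low density lipoprotein receptor, -0.16 (95% CI -0.29 to -0.032, unadjusted p = 0.018). The other 15 members ran from a log2 fold change of -0.44 to 0.10, 5 of the 27 being above 0. Of the 12 with an unadjusted p under 0.05, the fold changes were between -0.76 and -0.13 and the adjusted p-values between 0.695 and 0.769.

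Each sulfonic acid alone was set against PFPeA. The sterol median was -0.33 for PFPeA against PFBS, -0.33 against 42FTS, and 0.014 for PFBS against 42FTS. PFPeA had a lower mean than PFBS in 23 of 27 members, than 42FTS in 23 and than the control in 26, and the lowest mean of the 4 groups in 21. These comparisons share the PFPeA libraries. The PFBS mean was also below the control mean in 22 of the 27 members, and the 42FTS mean in 22. Against the control, the median was -0.42 for PFPeA, -0.17 for PFBS and -0.19 for 42FTS. DESeq2 called insig1_1, a numbered entry of the sterol regulator insig1, lower than the control in both sulfonic acids. Its log2 fold change was -2.59 for PFBS (DESeq2 adjusted p 7.66e-05) and -2.51 for 42FTS (0.000134). DESeq2 did not call insig1_1 for PFPeA, and edgeR did not call it for any acid. This entry was named after its values were seen. A list score, the mean over members of log2 CPM relative to the control mean, was -0.40, -0.42 and -0.36 in PFPeA, -0.23, -0.17 and 0.042 in PFBS, -0.12, -0.21 and -0.045 in 42FTS, and -0.088, -0.075 and 0.16 in the control. The PFPeA scores lay below the others and close together, PFBS and 42FTS overlapped, and Control 3 and PFBS b were the highest. Of the 39 lists, it was the 1 list in which all PFPeA scores lay on 1 side of all 6 sulfonic scores.

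The median of the sterol list stayed below 0 without any 1 of the 9 libraries, while the count varied. Leaving out 1 of the 9 libraries at a time gave a median between -0.35 and -0.26, and between 4 and 11 members lower at an unadjusted p under 0.05. The lowest counts were 4 without PFPeA 2, 7 without PFPeA 1 and 7 without 42FTS 3. Without PFPeA 1 and 42FTS 2 together, 7 of 27 (25.9%) were lower and 0 higher, against 2.77% and 2.28% of all genes, with a median of -0.29.

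**Figure D3:**
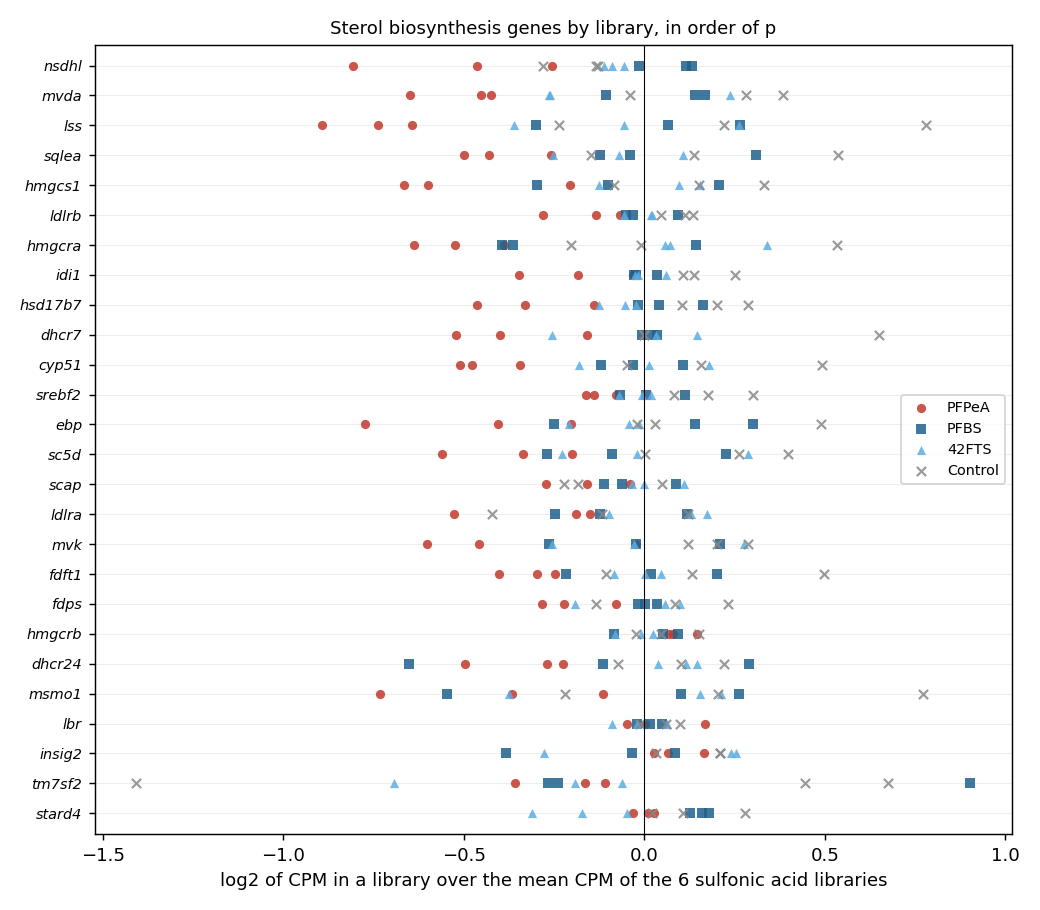
The log2 of CPM in each library over the mean of the 6 sulfonic acid libraries (x) for 26 of the 27 tested sterol genes, those with a sulfonic mean of at least 1 CPM, in order of p from the top. Red PFPeA points lie to the left of the blue points in the upper rows, where all 3 are below the 6 sulfonic libraries in rows such as mvda, lss and cyp51, and mix with them in the lower rows.

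Other lipid genes gave fewer differences. Of 26 genes of fatty acid synthesis and storage, 0 passed, 3 were lower at an unadjusted p under 0.05 (11.5%) and 0 higher, against 3.07% and 3.41% of all genes, with a median of -0.033. These were elovl5, which elongates polyunsaturated fatty acids, at -0.42 (95% CI -0.74 to -0.094, unadjusted p = 0.015), fads2, the desaturase of the same route, at -0.41 (unadjusted p = 0.044), and dgat2, which makes triglyceride, at -0.58 (unadjusted p = 0.021). The count was 1 (3.85%, against 2.77% of all genes) without PFPeA 1 and 42FTS 2, and dgat2 was then at -0.29. Of 43 PPAR targets and fatty acid oxidation genes, 0 passed, with a median of 0.021. In this list 1 was higher (2.33%) and 2 lower (4.65%), against 3.41% and 3.07% of all genes. Of the 22 fatty acid binding protein genes, 2 were higher (9.09%) and 0 lower at an unadjusted p under 0.05, against 3.41% and 3.07% of all genes. The 2 were fabp2 of the intestine at 1.15 (unadjusted p = 0.022) and fabp7b of brain at 0.35 (unadjusted p = 0.038). Without PFPeA 2, fabp2 was at -0.22. Among 25 apolipoprotein and yolk genes, apoa4b.3, an apolipoprotein of lipoprotein particles, was at 5.75, 3.29 and 7.75 CPM in PFPeA, 14.6, 10.6 and 12.3 in PFBS, 9.46, 10.7 and 15.7 in 42FTS and 5.78, 13.2 and 10.6 in the control, with PFPeA below all 6 sulfonic libraries and overlapping Control 1. Its fold change was -1.13 (95% CI -1.79 to -0.46, unadjusted p = 0.0029) and its DESeq2 adjusted p 0.0396. The next in that list, apoa4b.2, gave -0.46 (unadjusted p = 0.068).

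Transporters that could carry organic acids were listed apart. Of 36 organic anion transporter genes, 4 were lower in PFPeA at an unadjusted p under 0.05 and 0 higher, against 3.07% and 3.41% of all genes, with a median of -0.014. abcc1, an export pump for conjugates, gave -0.25 (unadjusted p = 0.011) and slc22a15 -0.22 (unadjusted p = 0.024). Leaving out PFPeA 1 and 42FTS 2 gave 2 lower (5.56%, against 2.77% of all genes). Of 18 monocarboxylate transporter genes, 2 were higher and 0 lower, against 3.41% and 3.07% of all genes. slc16a9b was at 33.5, 26.8 and 26.8 CPM in PFPeA, 25.4, 19.5 and 19.5 in PFBS, 26, 24.8 and 25.2 in 42FTS and 27.6, 21.6 and 23.4 in the control, a fold change of 0.32 (95% CI 0.068 to 0.56, unadjusted p = 0.016), or 0.20 without PFPeA 1. slc16a4 was at 5.34, 4.84 and 6.37 CPM in PFPeA, 4.12, 3.24 and 2.97 in PFBS, 3.63, 4.37 and 4.61 in 42FTS and 4.01, 5.91 and 6.66 in the control, a fold change of 0.54 (95% CI 0.11 to 0.96, unadjusted p = 0.017), and the control reached above PFPeA. With numbered copies added it was at 0.15, and in the authors' deposited table slc16a4 was at 0.058 for PFPeA, -0.039 for PFBS and -0.029 for 42FTS against the control. When PFPeA 1 and 42FTS 2 were left out, 1 of the 18 was higher (5.56%, against 2.28%). Of 76 genes of xenobiotic metabolism, 3 were higher (3.95%) and 0 lower, near the 3.41% of all genes that were higher. Without PFPeA 1 the counts were 2 and 1 (2.63% and 1.32%, against 2.79% and 2.72% of all genes). cyp1a, the marker enzyme of aryl hydrocarbon receptor activation, was at 9.17, 4.33 and 8.68 CPM in PFPeA, 5.44, 4.85 and 4.89 in PFBS, 4.61, 4.74 and 4.61 in 42FTS and 5.35, 5.30 and 4.50 in the control. PFPeA 1 and 3 were high and PFPeA 2 was the lowest of the 9 libraries, and the fold change was 0.61 (95% CI 0.11 to 1.1, unadjusted p = 0.02). tiparp, another target of that receptor, gave 0.31 (unadjusted p = 0.011).

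Glycolysis and hypoxia genes were more often higher than lower. Of 57 tested, 0 passed, 10 were higher in PFPeA at an unadjusted p under 0.05 (17.5%, against 3.41% of all genes) and 0 lower, with a median of 0.073. In 2 of the 57 all PFPeA libraries were above all 6 sulfonic libraries (1.71% of all genes). hk2, a hexokinase that starts glycolysis, was at 3.24, 1.77 and 1.80 CPM in PFPeA, 1.29, 0.793 and 0.809 in PFBS, 1.07, 0.883 and 0.768 in 42FTS and 0.489, 1.22 and 2.37 in the control. All PFPeA libraries were above the sulfonic ones, Control 3 was within their range, and the fold change was 1.28 (95% CI 0.48 to 2.08, unadjusted p = 0.0038), or 0.51 with numbered copies added. ankrd37, a target of hypoxia-inducible factor, was at 5.44, 2.56 and 1.03 CPM in PFPeA, 0.409, 1.52 and 0.330 in PFBS, 0.863, 1.12 and 0.676 in 42FTS and 3.03, 0.914 and 2.29 in the control. PFPeA 1 was high, PFPeA 3 lay among the sulfonic libraries, and the fold change was 1.88 (95% CI 0.73 to 3.03, unadjusted p = 0.0036), or 1.14 without PFPeA 1. egln1b, an oxygen-sensing hydroxylase that marks hypoxia-inducible factor for degradation, gave 0.18 (95% CI 0.039 to 0.31, unadjusted p = 0.015), and gpia, the next glycolytic enzyme after hexokinase, 0.15 (95% CI 0.039 to 0.26, unadjusted p = 0.011). The list score was 0.19, 0.11 and -0.032 in PFPeA, -0.045, -0.037 and -0.12 in PFBS, -0.10, -0.030 and -0.048 in 42FTS and -0.0019, -0.017 and 0.019 in the control. PFPeA 3 overlapped the sulfonic acids. The count was 6 without PFPeA 2 and between 7 and 15 without any other of the 9 libraries. Without PFPeA 1 and 42FTS 2 together it was 3 (5.26%, against 2.28% of all genes), with a median of 0.076.

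Genes of plasma proteins made by the liver gave 6 higher of 63 (9.52%) and 0 lower, against 3.41% and 3.07% of all genes, with a median of 0.070 and 0 past the adjusted test. c8b, a component of the complement membrane attack complex, was at 40.4, 37.9 and 43.1 CPM in PFPeA, 32.8, 33.8 and 32.4 in PFBS, 34.8, 33.8 and 35.5 in 42FTS and 35.1, 34.2 and 31.4 in the control, with all PFPeA libraries above all others and a fold change of 0.26 (95% CI 0.10 to 0.41, unadjusted p = 0.003). c9, which completes that complex, gave 0.22 (95% CI 0.056 to 0.37, unadjusted p = 0.012) and in the authors' deposited table a log2 fold change of 0.33 for PFPeA against the control (Q = 0.0449). Without PFPeA 1, c9 was at 0.14 and tfa at 0.21. tfa, the iron carrier transferrin, was at 1184, 904 and 1032 CPM in PFPeA, 706, 800.0 and 738 in PFBS, 943, 1019 and 864 in 42FTS and 944, 912 and 985 in the control. PFBS was low and 42FTS overlapped PFPeA and the control, so the fold change of 0.31 (95% CI 0.12 to 0.50, unadjusted p = 0.0033) was 0.48 against PFBS and 0.14 against 42FTS. The summed level of the liver markers tfa, fabp10a and apoa2 was 3081 to 3474 CPM in PFPeA, 2582 to 3366 in the sulfonic acids and 2983 to 3058 in the control. The part of liver amount in these values was not tested.

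Inflammation and acute phase genes had the highest list median, 0.20, with 8 of 76 higher (10.5%) and 4 lower (5.26%) at an unadjusted p under 0.05, against 3.41% and 3.07% of all genes, and 0 past the adjusted test. The list score was 0.98, 0.10 and 0.027 in PFPeA, -0.16, -0.016 and 0.15 in PFBS, 0.014, 0.68 and 0.055 in 42FTS and -0.10, 0.017 and 0.085 in the control. PFPeA 1 and 42FTS 2 were the high libraries, each alone in its group. mxc, an interferon-induced GTPase against viruses, was at 50.8, 4.40 and 4.89 CPM in PFPeA, 3.77, 4.41 and 3.30 in PFBS, 2.47, 8.63 and 3.16 in 42FTS and 3.58, 4.05 and 4.01 in the control, and il1b, the cytokine interleukin 1 beta, at 3.43, 0.411 and 0.354 CPM in PFPeA, 0.189, 0.317 and 0.839 in PFBS, 0.119, 0.923 and 0.461 in 42FTS and 0.0918, 0.152 and 0.161 in the control. Without PFPeA 1 the list median was -0.074, with 1 member higher (1.32%, against 2.79% of all genes) and 3 lower (3.95%, against 2.72%). Without 42FTS 2 it was 0.27, with 15 higher (19.7%, against 3.48%) and 4 lower (5.26%, against 2.89%). Without both it was 0.035, with 2 higher and 2 lower (2.63% each, against 2.28% and 2.77%). Without PFPeA 1, il1b was at -0.29 and mxc at 0.13. The summed level of the 9 macrophage and neutrophil markers was 62.2 to 76.0 CPM in PFPeA, 59.17 to 73.4 in the sulfonic acids and 63.6 to 81.5 in the control. Of the wider list of these cells, 2 of 39 were higher (5.13%) and 1, nccrp1, lower (2.56%), against 3.41% and 3.07% of all genes. Without PFPeA 1 there were 0 higher and 2 lower (5.13%, against 2.72% of all genes). ncf1, a subunit of the phagocyte oxidase, was at 16.9, 2.43 and 3.25 CPM in PFPeA, 2.11, 1.94 and 1.5 in PFBS, 2.62, 5.14 and 2.15 in 42FTS and 2.29, 2.01 and 1.81 in the control, again high in PFPeA 1, and its fold change was 1.61, or 0.21 without PFPeA 1.

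**Figure D4:**
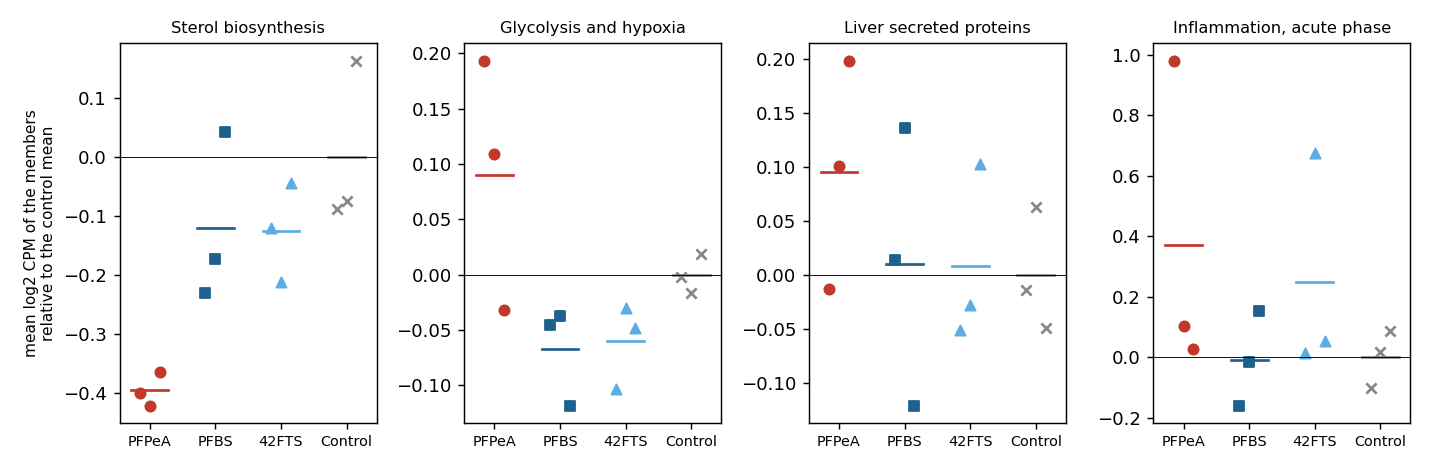
Mean log2 CPM of a list's members relative to the control mean (y, with a separate scale in each panel) for each library, with the group mean as a line. The sterol scores of PFPeA (-0.42 to -0.36) lie below the other groups, the glycolysis scores of PFPeA spread from -0.032 to 0.19, and the inflammation scores are high in 1 PFPeA library (0.98) and 1 42FTS library (0.68).

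Most lists of tissues and of nuclear receptor pathways had medians within 0.1 of 0. The retina list was at 0.11, the second highest median of the 39 lists, and at 0.25 without PFPeA 1. Of 52 genes of neural progenitors and glia, 7 were higher (13.5%) and 2 lower, against 3.41% and 3.07% of all genes. mbpb, of the myelin sheath, gave 0.18 (95% CI 0.06 to 0.30, unadjusted p = 0.0059) and cadm3, a cell adhesion molecule, -0.36 (95% CI -0.61 to -0.10, unadjusted p = 0.0091). Leaving out PFPeA 1 and 42FTS 2 gave 2 higher and 2 lower (3.85% each, against 2.28% and 2.77%). Of 84 genes of differentiated neurons, 0 were higher and 1 was lower (1.19%), against 3.41% and 3.07% of all genes. Of 105 skeletal muscle genes, 2 were higher (1.9%) and 6 lower (5.71%), and without PFPeA 1 the counts were 3 and 3 (2.86% each, against 2.79% and 2.72% of all genes). jph1a, which couples membranes at the muscle triad, was at 1.2, 0.727 and 1.06 CPM in PFPeA, 1.48, 1.55 and 2.49 in PFBS, 3.27, 1.65 and 4.09 in 42FTS and 1.93, 2.65 and 1.08 in the control, below the sulfonic libraries in all 3 PFPeA pools, with a fold change of -1.24 (95% CI -1.95 to -0.52, unadjusted p = 0.0022). smyhc1, the slow myosin heavy chain, was at 58.9, 52.5 and 38.4 CPM in PFPeA, 96.0, 70.0 and 127 in PFBS, 121, 64.9 and 59.7 in 42FTS and 55.7, 47.6 and 86.3 in the control. PFPeA overlapped the control and PFBS b and 42FTS 1 were high, with a fold change of -0.84 (95% CI -1.5 to -0.18, unadjusted p = 0.017). In the authors' deposited table smyhc1 was at 0.12 for PFPeA, 0.10 for PFBS and 0.21 for 42FTS against the control. Whether reads were split between near-identical myosin genes was not tested. Of 38 circadian genes, 2 were higher (5.26%) and 4 lower (10.5%), against 3.41% and 3.07% of all genes. Without PFPeA 1 the counts were 1 and 3 (2.63% and 7.89%, against 2.79% and 2.72%). The list was led by bhlhe40 and by clockb, a core clock factor, at -0.29 (95% CI -0.50 to -0.088, unadjusted p = 0.0082).

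In the stress lists, 4 of 35 genes listed as p53 targets or growth arrest genes were higher (11.4%) and 0 lower. The shares of all genes were 3.41% and 3.07%, and the list median was 0.099. ccng2, a cyclin of growth arrest, was at 87.4, 80.1 and 70.9 CPM in PFPeA, 68.7, 71.4 and 72.8 in PFBS, 62.2, 65.1 and 62.9 in 42FTS and 70.5, 66.9 and 71.9 in the control. PFPeA 3 lay among the PFBS libraries, and the fold change was 0.25 (95% CI 0.12 to 0.37, unadjusted p = 0.000909). Without PFPeA 1 and 42FTS 2 the p53 median was 0.024, with 3 higher (8.57%) and 1 lower (2.86%), against 2.28% and 2.77% of all genes. Without 42FTS 2 alone it was 0.13, with 6 higher (17.1%) and 1 lower (2.86%), against 3.48% and 2.89%. The lists of Nrf2 targets (34 genes), glucocorticoid response (31), thyroid axis (21), retina (35) and pituitary hormones (13) gave 0 members at an unadjusted p under 0.05 in either direction. Leaving out PFPeA 1 gave 2 higher in the Nrf2 list (5.88%), 2 in retina (5.71%) and 1 in pituitary (7.69%), against 2.79% of all genes. It gave 1 lower in each of the glucocorticoid (3.23%) and thyroid (4.76%) lists, against 2.72%. In the thyroid list the smallest p were those of the hormone receptors thrb at -0.32 (unadjusted p = 0.083) and thrab at -0.32 (unadjusted p = 0.085), and in the Nrf2 list those of the glutathione peroxidases gpx1a at 0.79 (unadjusted p = 0.078) and gpx1b at 0.53 (unadjusted p = 0.16). Without PFPeA 2, gpx1a was at -0.0073, and without PFPeA 1 gpx1b was at 0.05. In the glucocorticoid list ddit4, an inhibitor of mTOR signaling, gave 0.60 (unadjusted p = 0.071) and hsd3b1, a steroid enzyme, 0.98 (unadjusted p = 0.067). ddit4 was at 0.25 without PFPeA 1, and hsd3b1 at 0.43 with numbered copies added. Of 33 heat shock genes, 1 was higher (3.03%, near the 3.41% of all genes) and 0 lower. The 1 was hsp90ab1 at 0.076 (unadjusted p = 0.041). With PFPeA 1 and 42FTS 2 left out, 0 were higher and 1 was lower (3.03%, near the 2.77% of all genes). Of 52 genes of the integrated stress response and endoplasmic reticulum folding, 2 were higher (3.85%, near the 3.41% of all genes) and 0 lower. herpud1, 1 of the 2, was at 0.17 (unadjusted p = 0.017). Without 42FTS 2 there were 6 higher (11.5%, against 3.48% of all genes), and without PFPeA 1 and 42FTS 2 there were 0. Over all 39 lists, 36 medians lay within 0.1 of 0.

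**Figure D5:**
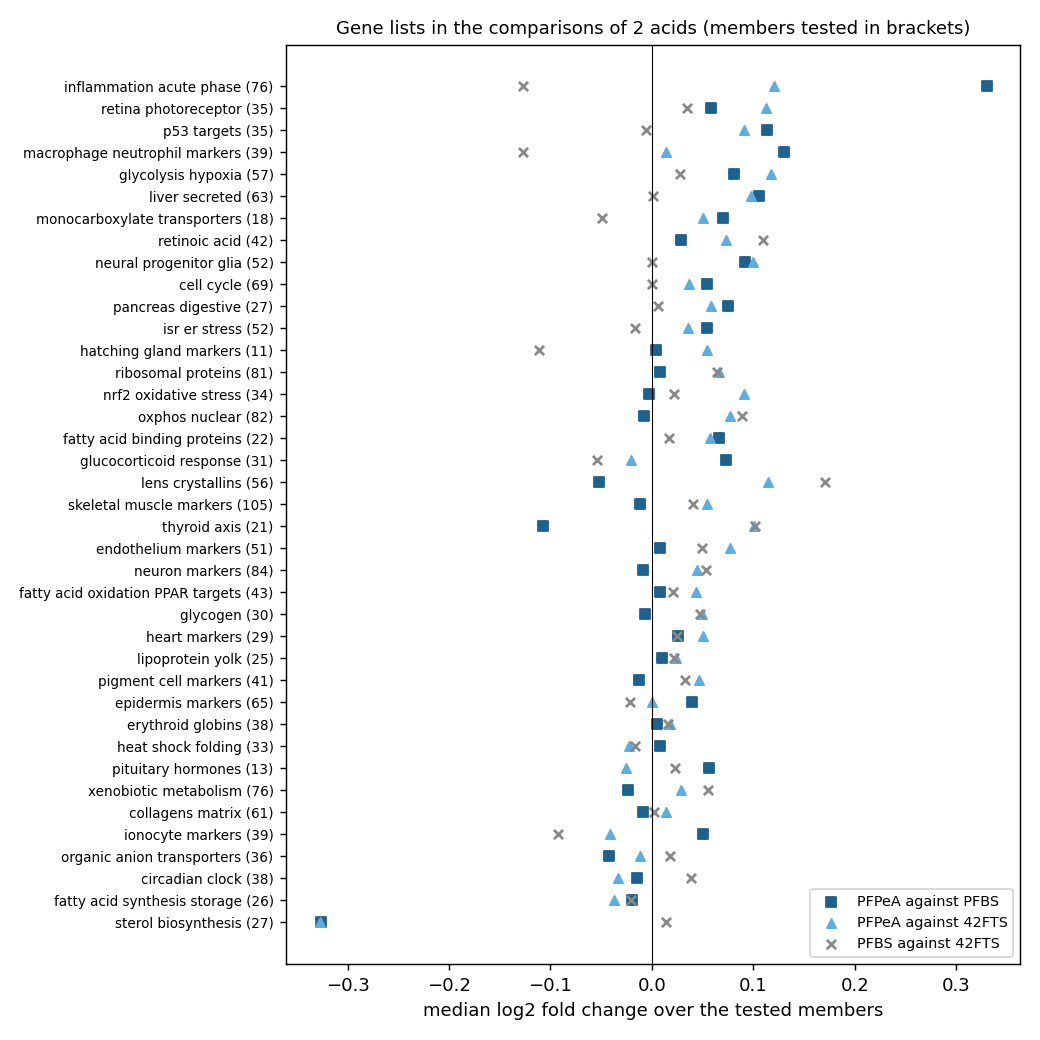
Median log2 fold change over the tested members of each of 39 lists (rows, number of members in brackets) for the 3 pairs of acids (x). Sterol biosynthesis lies at -0.33 for PFPeA against both PFBS and 42FTS and at 0.014 for PFBS against 42FTS, and inflammation at 0.33, 0.12 and -0.13.

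The authors' deposited table, which lists 1909 genes, all with a Q under 0.05 for the sulfonamide FBSA of the same series, gave a Q under 0.05 against the control for 6 genes with PFPeA, 1 with PFBS and 1 with 42FTS. The 6 were scarb2a, mvda, c9, znf703, h1f0 and cp. In the edgeR fit of PFPeA against the sulfonic acids, h1f0, a linker histone, was at a log2 fold change of 0.33 (adjusted p = 0.683) and cp, the copper-binding plasma protein ceruloplasmin, at 0.15 (adjusted p = 0.884). For PFPeA against the control, edgeR called none of these 6 genes. Of the other sterol genes, idi1 had a deposited Q of 0.070 and sqlea of 0.53 for PFPeA. The 6 genes were named after their values were seen.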

How the data were processed

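RNA of pooled whole zebrafish embryos was sequenced after oligo(dT) selection on a BGISEQ-500, per the labels' protocols. The deposited count table holds whole reads per gene entry for 15 libraries. HISAT2, HTSeq, Bowtie2, RSEM, DESeq2 and the build GRCz11 are named, with no role, in the submitters' processing notes. The authors' deposited table gives log2 fold changes and adjusted p-values (Q) of each compound against the control. It was used only where named. A further 60 columns of per-sample values or averages were not used.

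The 5 rows that name no gene were left out of library sizes and tests. Genes held 63.7% to 66.4% of the reads of the 9 libraries, and these rows the rest. Of 47048 entries, 23874 passed edgeR's filterByExpr. Counts were scaled by TMM and fitted with edgeR 4.0.16 (R 4.3.3, limma 3.58.1) by the quasi-likelihood F-test, two-sided and robust, with 1 term per group over all 15 libraries, which share 1 estimate of the spread. PFPeA was set against the mean of PFBS and 42FTS, with p-values adjusted by Benjamini-Hochberg over all genes at 0.05. DESeq2 1.42.0 was the alternative test. Other alternatives were other size factors, filters, libraries in the fit, a replicate block and numbered copies summed. The fit was also run on counts simulated from its own estimates of spread, to check that planted differences come back. That run does not bear on outlying pools or on the lack of called genes. List scores used log2 CPM with a prior count of 2.

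The 20 genes named first follow a rule: past the test, or else the smallest unadjusted p, with a plain symbol, a mean of 1 CPM or more, and PFPeA on 1 side of all 6 sulfonic libraries. For lists, the 2 members with the smallest p were named, except those not reported here, and further members were named after their values were seen. Members and lists were chosen with earlier results of these data known. No library pair was identical. Gene reads per library were 24249287 to 32494323 in the 9 libraries, and the intervals printed come from the spread between pools. The values of some list members are not reported here. Body burden and toxicity assays were not analysed here.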

Additional observations from a re-analysis of the deposited data

How the results depend on the processing

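With DESeq2's test, more genes passed in every comparison than the 0 of edgeR: 22 for PFPeA against the 2 sulfonic acids, 14 against PFBS, 24 against 42FTS, 11 for PFBS against 42FTS, and 15, 6 and 12 for PFPeA, PFBS and 42FTS against the control. The cause of these higher counts was not tested. In the main comparison DESeq2 called 2 list members, apoa4b.3 and nccrp1. In other comparisons the list members it called included mvda (DESeq2 adjusted p 0.0496), srebf2 (0.0297) and fads2 (0.0496) for PFPeA against the control. They also included tfa (0.0237) for PFPeA against PFBS, and ccng2 (0.0496) and jph1a (0.048) for PFPeA against 42FTS. For the main comparison, no filter on low counts, the sulfonic acids as 1 group of 6, and numbered copies summed each gave 1 gene with edgeR. It was mrps16_1, described below, with no filter (edgeR adjusted p 0.0272) and with 1 group of 6 (0.0328). With copies summed it was mrps16 (0.046). A fit of only the 9 libraries gave 1 gene for PFPeA against 42FTS and 1 for PFBS against 42FTS. No filter gave 1 for PFPeA against the control, and a fit without Control 3 and 42FTS 2 gave 1 for 42FTS against the control. Leaving out 1 library at a time gave 0 to 2 genes for the main comparison, 0 to 3 against PFBS, 0 to 1 against 42FTS, 0 to 1 for PFBS against 42FTS, 0 to 2, 0 to 1 and 0 to 2 against the control, and 0 to 0 list members.

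The count of sterol members lower was 4 to 11 and the sterol median -0.35 to -0.26 with 1 library left out, and the glycolysis count was 6 to 15. Without PFPeA 1 and 42FTS 2, chosen after seeing the data, these counts were 7 and 3. In a fit of only the 9 libraries of the acids they were 17 and 7. Same-numbered libraries of PFPeA and 42FTS correlated at -0.014, -0.064 and 0.086 in their deviations from group means, and PFPeA 1 correlated best with 42FTS 2 (0.13). Deviations from a mean of 3 libraries depend on each other, so these values cannot show whether the replicate numbers pair the libraries. With the replicate block, which leaves out PFBS a and b, 0 genes passed in the main comparison (smallest adjusted p 0.961), 4 sterol members were lower and 2 glycolysis members higher. With 1 library left out at a time, fabp2 ranged from -0.22 to 1.56, gpx1a from -0.0073 to 1.22, il1b from -0.29 to 2.02 and steap4 from -0.18 to 1.67. Sign changes were found for hmg20b (-0.015) and p4hb (0.040) with copies summed, fabp2 (-0.22) and gpx1a (-0.0073) without PFPeA 2, il1b (-0.29) and steap4 (-0.18) without PFPeA 1, and steap4 (-0.039) without PFPeA 1 and 42FTS 2. Of all values of single genes under the alternatives, 2524 kept direction and side of the threshold, 24 passed it newly and 7 changed sign.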

Other observations

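Further lists held members with small unadjusted p-values, and none passed the edgeR test. Of 56 lens genes, 5 were higher in PFPeA (8.93%) and 0 lower, against 3.41% and 3.07% of all genes. The count was 8 without PFPeA 1 (14.3%, against 2.79% of all genes) and 3 without 42FTS 2 (5.36%, against 3.48%). It was 5 without both (8.93%, against 2.28%). crybb1l3, a beta crystallin, was at 9.67, 9.99 and 9.62 CPM in PFPeA, 7.23, 7.90 and 7.79 in PFBS, 8.57, 7.63 and 7.59 in 42FTS and 7.71, 7.31 and 8.27 in the control. All 3 PFPeA libraries were above all others, and the log2 fold change was 0.33 (95% CI 0.069 to 0.58, unadjusted p = 0.016). Of 42 retinoic acid genes, 5 were higher (11.9%) and 1 lower (2.38%), and 1 and 1 (2.38% each, against 2.28% and 2.77% of all genes) without that pair of libraries. rargb, a retinoic acid receptor, gave -1.27 (unadjusted p = 0.014). Of 69 cell cycle genes, 4 were higher (5.8%) and 0 lower, and 2 higher (2.9%, near the 2.28% of all genes) without that pair, led by e2f7, a repressor of E2F targets, at 0.25 (95% CI 0.092 to 0.40, unadjusted p = 0.0039). Of 61 collagen and matrix genes, 2 were higher (3.28%) and 5 lower (8.2%), and 0 and 3 (4.92%, against 2.72% of all genes) without PFPeA 1. fn1a, fibronectin, gave -0.30 (95% CI -0.51 to -0.093, unadjusted p = 0.0077), or -0.04 with numbered copies added. In the glycogen list, phka1a, a regulatory subunit of phosphorylase kinase, gave -0.33 (95% CI -0.53 to -0.12, unadjusted p = 0.0039). foxi3b, which drives ionocyte formation, was at 1.02, 0.949 and 1.74 CPM in PFPeA, 0.503, 0.254 and 0.420 in PFBS, 0.268, 0.401 and 0.799 in 42FTS and 0.489, 0.609 and 0.241 in the control, all PFPeA libraries being above all others, with a fold change of 1.48 (95% CI 0.52 to 2.45, unadjusted p = 0.005). The ionocyte markers foxi3a and ca2 were at -0.090 and 0.055. Of 39 ionocyte genes, 1 was higher (2.56%) and 2 lower (5.13%), against 3.41% and 3.07% of all genes. cdh5, an adhesion molecule of endothelium, gave -0.78 (95% CI -1.33 to -0.23, unadjusted p = 0.0088), and the endothelium markers kdrl and fli1a -0.0032 and 0.034. Of 51 endothelium genes, 4 were higher (7.84%) and 3 lower (5.88%), against the same shares of all genes.

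The smallest p of any entry was that of mrps16_1, a numbered copy of a mitochondrial ribosomal protein gene, at 7.38, 8.98 and 1.54 CPM in PFPeA, 0.849, 0.888 and 0.600 in PFBS, 0.952, 0.883 and 1.11 in 42FTS and 0.704, 0.975 and 0.883 in the control. PFPeA 1 and 2 were high and PFPeA 3 was above the 6 sulfonic libraries by less. The log2 fold change was 2.77 (95% CI 1.96 to 3.57, unadjusted p = 2.64e-06), with an edgeR adjusted p of 0.0631 and a DESeq2 adjusted p of 1.11e-06. Entries with a numbered suffix can share reads with their namesakes. They made up 19% of the 100 smallest p and 14.2% of all tested entries. pex5_2 and si:dkey-31g6.6 followed, at 1.67 (unadjusted p = 4.25e-05) and 2.09 (unadjusted p = 6.15e-05). Without PFPeA 3, mrps16_1 passed the edgeR test (adjusted p = 2.84e-05), and without PFPeA 2 si:dkey-31g6.6 did (adjusted p = 0.00161). With copies summed, mrps16 was at 2.73 (edgeR adjusted p = 0.046) and si:dkey-31g6.6 at 0.82. rps15, a ribosomal protein entry, gave 2.64 (95% CI 1.12 to 4.16, unadjusted p = 0.003), or 0.24 without PFPeA 1. It was at 91.7 CPM in PFPeA 1 and 4.53 to 6.94 in the other 8 libraries. These entries were named after their values were seen. The median of the 81 ribosomal protein genes was 0.038, with 2 higher (2.47%, against 3.41% of all genes). Without PFPeA 1 the median was 0.071, with 8 higher (9.88%, against 2.79% of all genes), and without PFPeA 2 it was -0.0026.

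Further members with the smallest p of their lists are given as log2 fold changes of PFPeA against the sulfonic acids. Among muscle and heart genes these were cacna1sb at -0.16, a calcium channel subunit, mef2ca at -0.55, a transcription factor, and tnni1b at 0.22, a troponin. The vessel, blood and skin lists gave sox7 at 0.25, lmo2 at 0.22, hbbe1.2 at 0.29, klf4 at -1.33 and tmsb1 at 0.49. Genes of the hatching gland and ionocytes gave he1a at 0.29, a hatching enzyme, p4hb at -0.39 and slc4a4b at -1.39. The pigment, pancreas and lens lists gave pts at 0.25, mlana at 0.27, nkx2.2a at 0.18 and crygm2d16 at 0.24. For neurons, retina and pituitary they were th at -0.86, gucy2f at -0.87, gc3 at 1.43, igf1 at 0.71 and igf2b at -0.19. The lists of growth and energy genes gave ccne2 at 0.17, rplp0 at 0.083, uqcr10 at 0.17, ndufb10 at 0.15 and phka2 at -0.33. Matrix, retinoic acid and stress genes gave col27a1a at -0.66, rxrgb at 0.19, gadd45bb at 0.64, hspb9 at 0.85 and si:ch211-160e1.5 at 0.25. Inflammation genes gave si:dkey-8k3.2 at 0.57 and ccl19a.1 at 2.29. None of these passed the edgeR test, and some moved under the alternatives. With copies summed, slc4a4b was at -0.19, th at -0.23, tmsb1 at 0.095 and igf2b at -0.012. Without PFPeA 1, ccl19a.1 was at 0.59, gadd45bb at 0.084 and hbbe1.2 at 0.090. For gc3 the value was 0.86 without PFPeA 1 and 3.17 without PFBS 2.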
